A study of Mus musculus with 40 samples.

Results

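Liver transcriptomes of wild-type mice after 6 and 12 days on a purified diet were compared, to see what an additional 6 days on that diet changed in livers without a gene deletion. The comparison takes every library labelled WT at day 6 (4 libraries) and WT at day 12 (5 libraries), 9 of the 40 libraries in the series. The mice were females on a C57BL/6JBomTac background, 9 weeks old at the start of the diet by the study's methods. The labels give the days as age, whereas the methods give them as days on the diet, and they are read as the latter here. All carried floxed Nampt alleles (Nampt fl/fl) and no Cre, so that the gene for nicotinamide phosphoribosyltransferase, an enzyme of NAD salvage, was intact. Their HNKO littermates carried the same alleles with Alb-Cre+/-, which is driven by the albumin promoter and deletes Nampt in hepatocytes. HNKO livers at day 6 (5 libraries) and day 12 (6 libraries) share no library with the WT groups and are set beside them where this shows how far a change reaches. All mice had been raised on a fortified breeding chow and then received the purified diet (PD). Livers were taken at death, so no animal was followed over time. Collection dates and time of day are not given in the sources used here, so day on the diet and day of collection cannot be told apart.

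The liver is made up mostly of hepatocytes, which carry out its metabolism and secrete plasma proteins. Its sinusoids hold Kupffer cells, the resident macrophages, which clear particles and complement-coated microbes from portal blood. Transcription in hepatocytes depends on coactivators such as CREBBP and EP300, which acetylate histones at enhancers, and on methyltransferases of the KMT2 family, which mark enhancers and promoters. In RNA from whole liver, fewer cells of a type and less RNA per cell cannot be told apart.

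Promoter sequences are shown for 4 Kupffer cell genes that were lower at day 12, because these are the members of the Kupffer cell list that passed the test. They are RefSeq windows on GRCm38.p6, from 250 bases before to 50 bases after the annotated start, written 5′ to 3′ on the gene's strand. Capitals mark GGAAGT on either strand (ACTTCC when read on the reverse strand), which contains the GGAA core recognised by ETS factors such as PU.1, the product of Spi1. The windows are chr6:83656067-83656366 (minus strand) for Clec4f, chrX:96293389-96293688 (minus) for Vsig4, chr4:136892865-136893164 (minus) for C1qc and chr3:87357631-87357930 (plus) for Cd5l.
Clec4f: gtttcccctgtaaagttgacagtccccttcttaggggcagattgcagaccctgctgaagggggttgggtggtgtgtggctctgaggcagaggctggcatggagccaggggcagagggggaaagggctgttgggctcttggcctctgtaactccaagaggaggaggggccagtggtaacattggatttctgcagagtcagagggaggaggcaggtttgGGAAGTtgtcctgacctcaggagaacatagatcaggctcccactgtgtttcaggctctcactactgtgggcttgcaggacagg
Vsig4: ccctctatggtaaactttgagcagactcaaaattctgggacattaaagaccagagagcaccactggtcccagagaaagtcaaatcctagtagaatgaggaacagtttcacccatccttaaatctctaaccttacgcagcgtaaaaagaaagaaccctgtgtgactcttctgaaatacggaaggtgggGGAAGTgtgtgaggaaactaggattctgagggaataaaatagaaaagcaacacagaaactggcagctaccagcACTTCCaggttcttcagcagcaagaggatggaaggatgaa
C1qc: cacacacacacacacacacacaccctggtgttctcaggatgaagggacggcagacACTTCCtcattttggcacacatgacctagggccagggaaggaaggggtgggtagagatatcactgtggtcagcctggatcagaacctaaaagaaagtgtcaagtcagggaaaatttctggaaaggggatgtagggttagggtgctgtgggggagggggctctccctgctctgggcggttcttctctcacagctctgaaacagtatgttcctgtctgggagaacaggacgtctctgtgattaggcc
Cd5l: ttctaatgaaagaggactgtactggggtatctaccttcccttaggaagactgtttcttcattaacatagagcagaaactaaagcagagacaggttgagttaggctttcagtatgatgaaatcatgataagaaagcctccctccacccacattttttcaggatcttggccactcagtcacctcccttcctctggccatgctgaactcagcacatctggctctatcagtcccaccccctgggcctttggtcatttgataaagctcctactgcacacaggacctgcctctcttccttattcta

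Clec4f held the motif 33 bases before the start, Vsig4 held it 63 bases before and 10 bases after the start, C1qc held it 195 bases before the start, and the Cd5l window had no match. Of 11 promoters found for the Kupffer cell and macrophage list, 7 (63.6%) held GGAAGT, against 23.8% of all 32851 promoters and 26.9% of promoters of tested genes. The share was 23.1% for genes called higher and 27.5% for genes called lower. The motif was chosen after the values were seen, and a match describes the letters in the window only.

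The promoter of Crebbp, at chr16:4213355-4213654 on the minus strand, is shown as an example of the genes that rose, with every CG dinucleotide in capitals.
Crebbp: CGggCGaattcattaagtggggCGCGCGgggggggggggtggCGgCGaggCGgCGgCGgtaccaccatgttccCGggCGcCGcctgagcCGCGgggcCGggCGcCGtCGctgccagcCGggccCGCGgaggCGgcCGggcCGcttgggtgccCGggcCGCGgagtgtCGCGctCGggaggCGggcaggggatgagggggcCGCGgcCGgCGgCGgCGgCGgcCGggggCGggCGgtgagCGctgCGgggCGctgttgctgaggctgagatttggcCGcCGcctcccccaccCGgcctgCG

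This window held 49 CG dinucleotides and was 82.0% G or C, while the Clec4f and Cd5l windows held 0 and the Vsig4 and C1qc windows held 3 each. Over the 285 genes called higher that had a window, the median promoter held 26 CG dinucleotides, against 15.5 for the genes called lower and 18 for all tested genes.

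The WT libraries held between 21656496 and 26264567 counted fragments at day 6 (median 23240071) and between 23572861 and 36041290 at day 12 (median 30952568). Of 20297 genes with enough counts to test, 454 passed an adjusted p of 0.05 (2.24%) with edgeR's quasi-likelihood test, 378 of which rose (1.86%) and 76 of which fell (0.374%). Without adjustment, 2688 genes (13.2%) had a p under 0.05. Most changes were moderate: the median log2 fold change was 0.54 for genes called higher and -0.57 for genes called lower, and 27 genes rose and 5 fell by more than 2-fold. Libraries 8 and 10 at day 6 and library 16 at day 12 differed from the other WT libraries of these days in circadian clock genes. Counts without them are given with the limits. The summed level of hepatocyte markers was 141000 to 163000 CPM (counts scaled to the size of the library) at day 6 and 132000 to 172000 at day 12, and Alb, the most abundant plasma protein gene, had a log2 fold change of 0.0013 ± 0.19 (SE). Nampt, the floxed gene, had a log2 fold change of -0.36 ± 0.24 (adjusted p = 0.58). Its level was 7.28, 7.09 and 7.24 log2 CPM in libraries 8, 10 and 16, and between 5.89 and 6.12 in the other WT libraries of these days.

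Levels are given below as log2 CPM, in the order of libraries 8, 10, 27 and 28 at day 6 and libraries 14, 15, 16, 33 and 34 at day 12. Fold changes are log2 values of day 12 minus day 6 with their SE, and adjusted p values are from edgeR's quasi-likelihood test with Benjamini-Hochberg adjustment over all tested genes.

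Palld, which encodes the actin-associated scaffold palladin (chr8:61511433-61902690, minus strand), had the smallest p of all. Its levels were 4.52, 4.65, 4.49 and 4.55 at day 6 and 5.58, 5.90, 5.61, 5.55 and 5.77 at day 12. Every day 12 library was higher than every day 6 library, and the log2 fold change was 1.14 ± 0.13 (adjusted p = 5.1e-06), a 2.2-fold rise. Hipk2, a nuclear serine/threonine kinase that phosphorylates p53 (chr6:38694390-38876165, minus strand), had levels of 5.96, 5.95, 5.55 and 5.48 and then 6.98, 7.01, 7.09, 6.61 and 6.81. It rose by 1.16 ± 0.16 (adjusted p = 7.3e-05). Rreb1, a zinc finger transcription factor of the RAS pathway, rose by 0.92 ± 0.13 (adjusted p = 7.8e-05). Its levels were 5.91, 5.80, 5.95 and 5.71 at day 6 and 6.90, 6.89, 6.47, 6.71 and 6.82 at day 12.

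**Figure D1:**
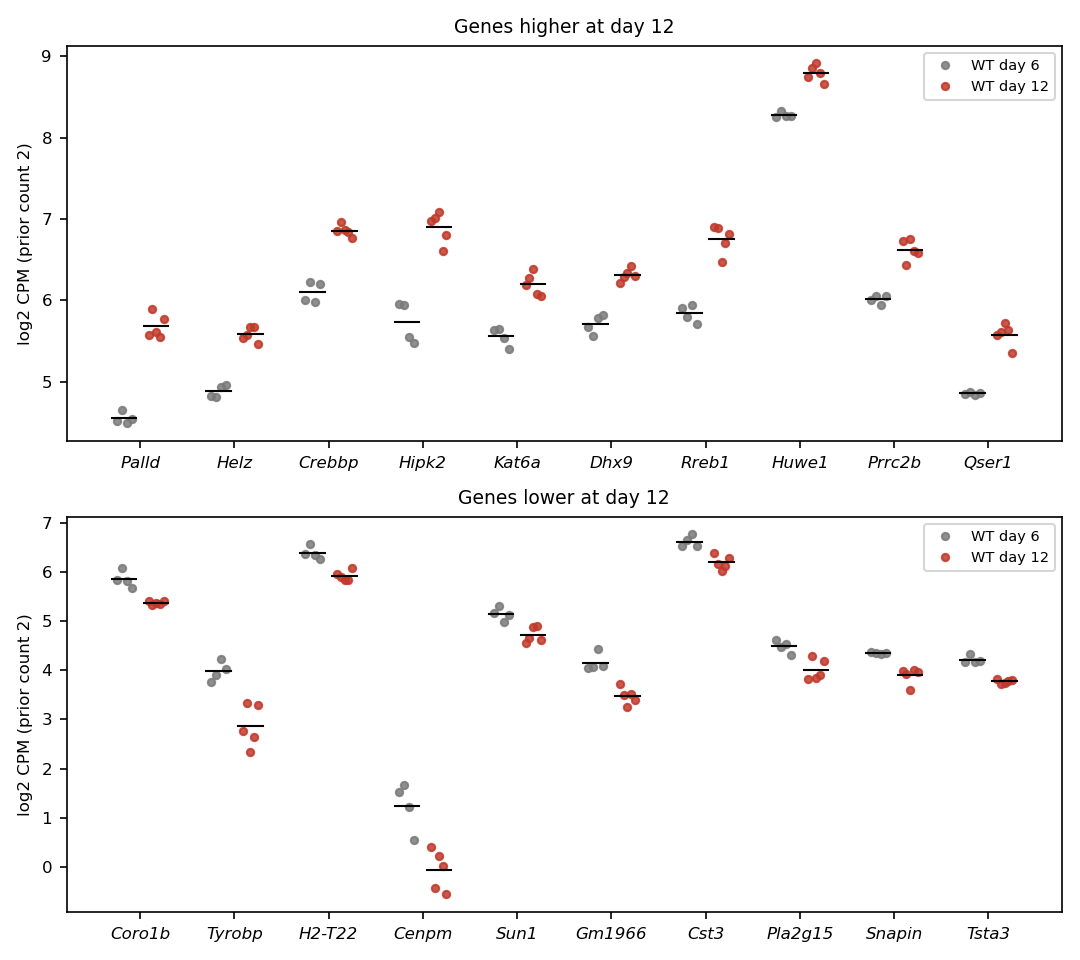
Level of the 10 genes with the smallest p in each direction among genes whose WT day 6 and day 12 libraries do not overlap, in log2 CPM with a prior count of 2. Points are libraries (4 at day 6, 5 at day 12) and bars are group means. Palld moves from a mean of 4.56 to 5.68 and Tyrobp from 3.98 to 2.87.

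Crebbp, the histone acetyltransferase whose promoter is shown above (gene at chr16:4081328-4213997, minus strand), had levels of 6.00, 6.23, 5.98 and 6.20 at day 6 and 6.85, 6.96, 6.87, 6.84 and 6.77 at day 12. The day 12 libraries lay above all day 6 libraries and close to each other, and the log2 fold change was 0.75 ± 0.10 (adjusted p = 7.3e-05). Kat6a, an acetyltransferase of the MYST family, went from 5.64, 5.65, 5.54 and 5.41 to 6.19, 6.28, 6.39, 6.08 and 6.06, a change of 0.64 ± 0.089 (adjusted p = 7.3e-05). The other genes with the smallest p among those higher were Helz (0.70 ± 0.083) and Dhx9 (0.60 ± 0.083), which encode RNA helicases, the ubiquitin ligase gene Huwe1 (0.52 ± 0.073), Prrc2b (0.61 ± 0.087) and Qser1 (0.73 ± 0.10). Their adjusted p values were between 6.4e-06 and 8.0e-05. Like Palld, Hipk2, Rreb1, Crebbp and Kat6a, they were picked from called genes whose libraries did not overlap between days. Their lack of overlap is therefore part of the choice. Across all tested genes, 1131 (5.57%) did not overlap between days, and 385 of these (1.9% of tested genes) were also called.

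Because several of these genes act on chromatin, whole families were counted. These families were chosen after the values were seen, so their counts are descriptions. Of 11 histone acetyltransferase genes tested, 3 rose (Crebbp, Kat6a and Ep300) and none fell, where 1.86% of all tested genes were called higher. The median log2 fold change of the family was 0.0645, against -0.0106 for all tested genes. Ep300 had levels of 5.51, 5.75, 5.73 and 5.77 and then 6.25, 6.29, 6.24, 6.41 and 6.21, all higher at day 12. Of 43 histone lysine methyltransferase genes, 10 rose and none fell (23.3% called, against 1.86% of all tested genes, median 0.17), and 6 rose when only the WT day 6 and day 12 libraries were fitted. The median transcript length of this family was 6130 bases, and lengths are taken up below. The group included Kmt2a, Kmt2b, Kmt2d and Kmt2e, as well as Setd1b, Ash1l, Dot1l, Nsd3, Prdm2 and Setd5. Kmt2d, an H3K4 methyltransferase of enhancers, had levels of 5.61, 5.84, 5.68 and 5.71 at day 6 and 6.84, 6.79, 6.84, 6.88 and 6.79 at day 12, without overlap.

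Of 28 subunits of the SWI/SNF nucleosome remodellers, 6 rose and none fell (21.4% called, against 1.86% of all tested genes, median 0.0907). Arid1a, the DNA-binding subunit, showed the clearest separation, with levels of 5.34, 5.43, 5.43 and 5.47 and then 6.4, 6.42, 6.31, 6.35 and 6.16. The others called were Arid1b, Arid2, Smarcc1, Pbrm1 and Bicra. This count was 2 without library 27, 3 without library 8, 10, 14 or 33, 4 without library 15, 16 or 28, and 3 when only the WT day 6 and day 12 libraries were fitted. Of 29 Mediator subunits, 4 rose and none fell (Med12, Med13, Med13l and Med15, median -0.0291). The remodeller genes Chd4 and Chd8 also rose, 2 of 8 in their family.

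The genes that rose encode long transcripts, and this was measured for all genes. The median length of the longest annotated transcript was 6410 bases for genes called higher, 2471 for genes called lower and 2774 for all tested genes. Genes with a mean level of at least 1 log2 CPM were split into eighths by length. The median log2 fold change went from -0.14 in the shortest eighth to 0.14 in the longest, and the share called higher went from 0.257% to 12.3%. The same order was seen within both series of library numbers (from -0.18 to 0.17 in libraries 1 to 21, and from -0.12 to 0.14 in libraries 22 to 41) and in HNKO livers (from -0.0906 to 0.0875).

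**Figure D2:**
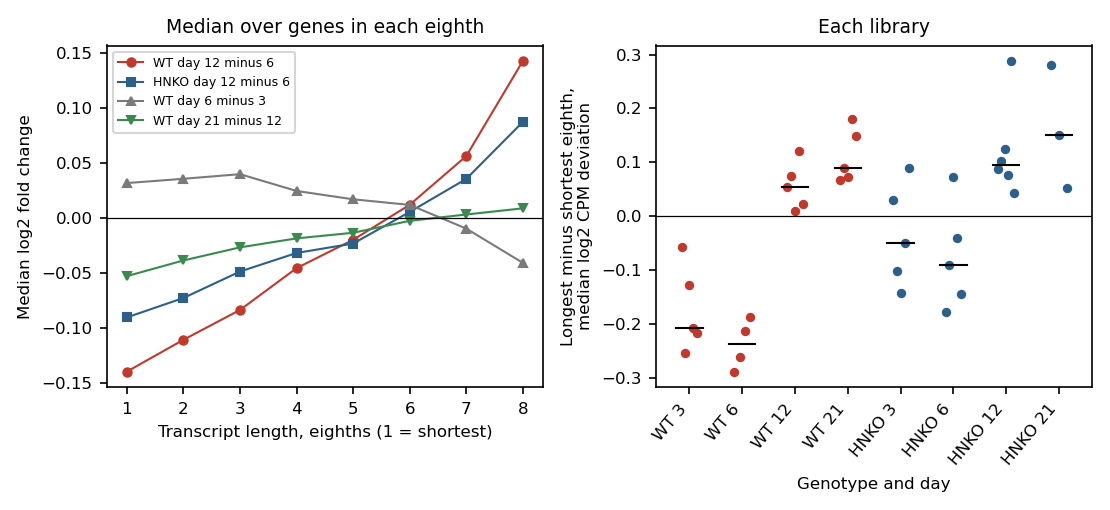
Left, median log2 fold change over genes in each eighth of transcript length, from shortest to longest, for 4 comparisons; WT day 6 minus 3 and WT day 21 minus 12 share libraries with the WT comparison. Right, for each library, the median deviation of genes in the longest eighth minus that in the shortest (points) with the group median (bars). WT day 6 libraries lie between -0.29 and -0.19 and WT day 12 libraries between 0.010 and 0.12.

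When the length trend was removed within each library, an alternative added after seeing the data, 135 of the 378 genes called higher were still called higher and 32 of the 76 genes called lower were still called lower. Palld (1.02), Hipk2 (1.0), Crebbp (0.54), Arid1a (0.75) and Kmt2d (0.80) were among those still called, and Huwe1 (0.25, adjusted p = 0.32) was not. Of the family counts, all 3 acetyltransferase genes remained called, but the methyltransferase count fell from 10 to 3 and the SWI/SNF count from 6 to 1. The Mediator count fell from 4 to 2 and the CHD count from 2 to 0. In the Kupffer cell and macrophage list described below, 1 of the 4 genes called lower, C1qc, was still called, Csf1r was newly called (adjusted p = 0.035), and the median was -0.57. In the MHC class I family 2 of 4 were still called, H2-T22 and H2-T10. The calls of mt-Te (1.42, adjusted p = 0.12), Zmat3 (0.63, adjusted p = 0.056), Pclo (1.11, adjusted p = 0.13), Tsta3 (-0.38, adjusted p = 0.053), Creld2 (-0.91, adjusted p = 0.11) and CT010467.1 (2.57, adjusted p = 0.058), all described below, were lost as well. So were those of mt-Nd6 (1.265, adjusted p = 0.089), Psmb9 (-0.49, adjusted p = 0.096) and Ern1 (0.45, adjusted p = 0.225), also described below. Whether the length trend comes from the livers or from the libraries was not tested.

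Some genes of insulin signalling passed the test. Insr, the insulin receptor, had levels of 8.10, 8.01, 8.05 and 7.96 at day 6 and 8.20, 8.40, 8.57, 8.57 and 8.32 at day 12, all higher, with a log2 fold change of 0.39 ± 0.11 (adjusted p = 0.045). Irs1, the substrate that carries the signal to PI3 kinase, rose by 0.68 ± 0.18 (adjusted p = 0.031), with levels of 4.76, 5.40, 5.66 and 5.33 and then 6.23, 5.89, 5.27, 6.26 and 6.16. Here the groups overlapped, as library 16 lay within the day 6 range. Insr and Irs1 were the only genes called among 24 fasting, FoxO and glucocorticoid targets, a list carried over from the design (8.33% called, median 0.26). In a list of 32 insulin signalling genes that was put together after the values were seen, 7 were called, all higher (Insr, Irs1, Foxo1, Gsk3b, Sos1, Tsc2 and Rptor), which is 21.9%, against 1.86% of all tested genes. The median of the list was 0.0254. Without library 8 or 10 there were 4, and there were 3 when only the WT day 6 and day 12 libraries were fitted. These calls are at the margin: Insr was called in 8 of 23 alternative settings and Irs1 in 11 of 23, and with the length correction none of the 7 was called.

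Fn1, which encodes the matrix and plasma protein fibronectin, rose by 1.03 ± 0.19 (adjusted p = 0.00095), with levels of 11.14, 11.01, 10.88 and 11.13 at day 6 and 12.07, 12.23, 12.07, 12.02 and 12.0 at day 12. It was the only member called among 33 collagen and matrix genes (3.03%, against 2.24% of all tested genes, median 0.29). Slc25a42, a mitochondrial carrier of coenzyme A, rose by 0.87 ± 0.20 (adjusted p = 0.011). It was the only one of 45 SLC25 carriers to be called (2.22%, against 2.24% of all tested genes). Its call was lost without library 8 (adjusted p = 0.074) or library 10 (adjusted p = 0.051). Psmd11, a subunit of the proteasome lid, rose by 0.62 ± 0.12 (adjusted p = 0.0019), whereas 31 of the 38 proteasome subunits had a negative log2 fold change (median -0.11) and the other one called, Psmb9, fell. Zmat3, a p53 target, rose by 0.79 ± 0.17 (adjusted p = 0.0076).

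Among the 5 largest rises at a mean level of at least 1 log2 CPM were genes of the mitochondrial genome. mt-Nd5, a subunit of complex I (chrM:11742-13565, plus strand), had levels of 10.30, 9.73, 9.61 and 9.68 at day 6 and 11.28, 11.45, 11.46, 11.01 and 10.67 at day 12. The groups did not overlap, and the log2 fold change was 1.35 ± 0.31 (adjusted p = 0.010), with the call lost without library 27 (adjusted p = 0.050). mt-Te, the tRNA for glutamate, rose by 1.52 ± 0.33 (adjusted p = 0.0072). The list tested held 10 mitochondrially encoded protein and ribosomal RNA genes and left out tRNA genes such as mt-Te. Of these 10, mt-Nd5 and mt-Nd6 were called (20%, against 1.86% of all tested genes called higher). mt-Nd6 was not called without library 10, 14, 15, 16, 27 or 28 (adjusted p from 0.077 to 0.15) or with the length correction (0.089). mt-Nd4 had a log2 fold change of 0.96 (adjusted p = 0.075) with libraries that did not overlap. mt-Co1, at -0.0950, and both ribosomal RNAs, at 0.16 and 0.15, were not called. mt-Nd5 and mt-Nd6 overlap on opposite strands, and since the strand setting of the counting is not given, reads of these genes may not be separated. Without library 27 none of the list was called. The summed level of the list was 67000 to 85300 CPM at day 6 and 72100 to 87500 at day 12, which overlap.

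The other genes with the largest rises at this level were Mospd3 (1.41 ± 0.23, from 0.92, 0.98, 0.87 and 1.01 to 2.31, 2.16, 2.71, 2.42 and 1.88), Pclo (1.44 ± 0.34) and CT010467.1. The last is annotated as ribosomal RNA, of which many copies exist, and had levels of 7.08, 6.75, 7.96 and 7.42 at day 6 and 8.32, 7.74, 7.57, 11.63 and 9.73 at day 12. The groups overlapped, libraries 33 and 34 were far above the rest, and the gene was not called without library 8, 10, 27, 28, 33 or 34 (adjusted p from 0.051 to 0.34, the highest without library 33). Pclo was not called without library 8 (adjusted p = 0.060) or library 10 (adjusted p = 0.068).

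Among markers of macrophages, 4 of 14 were called lower at day 12. Clec4f, the C-type lectin that marks Kupffer cells (gene at chr6:83644542-83656187), had levels of 7.48, 7.17, 7.69 and 7.47 at day 6 and 6.64, 7.07, 6.78, 6.44 and 7.12 at day 12. All day 12 libraries were lower, and the log2 fold change was -0.63 ± 0.16 (adjusted p = 0.025). Cd5l, a secreted protein of tissue macrophages, had levels of 7.65, 7.53, 7.83 and 7.37 and then 6.66, 7.35, 6.82, 6.18 and 7.02, a change of -0.75 ± 0.20 (adjusted p = 0.031). Vsig4, a receptor for complement C3 fragments, had levels of 5.49, 5.51, 5.73 and 5.57 and then 4.92, 5.35, 4.82, 4.52 and 5.0, a change of -0.63 ± 0.16 (adjusted p = 0.019). C1qc, a chain of complement C1q, had levels of 5.86, 5.87, 6.13 and 5.82 and then 5.22, 5.51, 4.84, 4.71 and 5.47, a change of -0.74 ± 0.17 (adjusted p = 0.0095). None of the 4 genes overlapped between days, and library 33 was the lowest in each.

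Of the 14 genes in the Kupffer cell and macrophage list, these 4 fell (28.6% called, against 0.374% of all tested genes called lower) and none rose. The log2 fold changes of all 14 were negative, and the median was -0.62. Their summed level was 866 to 1090 CPM at day 6 and 456 to 851 at day 12, and no marker was at 0. The next members by p were Csf1r, the CSF1 receptor, at -0.50 (adjusted p = 0.051) and Adgre1, which encodes F4/80, at -0.73 (adjusted p = 0.060). Marco (-0.18), Mpeg1 (-0.17) and Cd163 (-0.29) were far from the threshold. The calls of the 4 genes depend on single libraries. C1qc lost its call without library 27, Vsig4 without library 27 or 33, Clec4f without library 8, 14, 27, 28 or 33, and Cd5l without library 8, 10, 14, 16, 27 or 33. Without library 27 none of the list was called, with a median of -0.56, and without library 33 only 1 was called, with a median of -0.47. No member was called when only the WT day 6 and day 12 libraries were fitted (median -0.61), and DESeq2 called 8. With the length correction Clec4f (-0.59, adjusted p = 0.098), Cd5l (-0.70, adjusted p = 0.092) and Vsig4 (-0.58, adjusted p = 0.076) were not called.

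**Figure D3:**
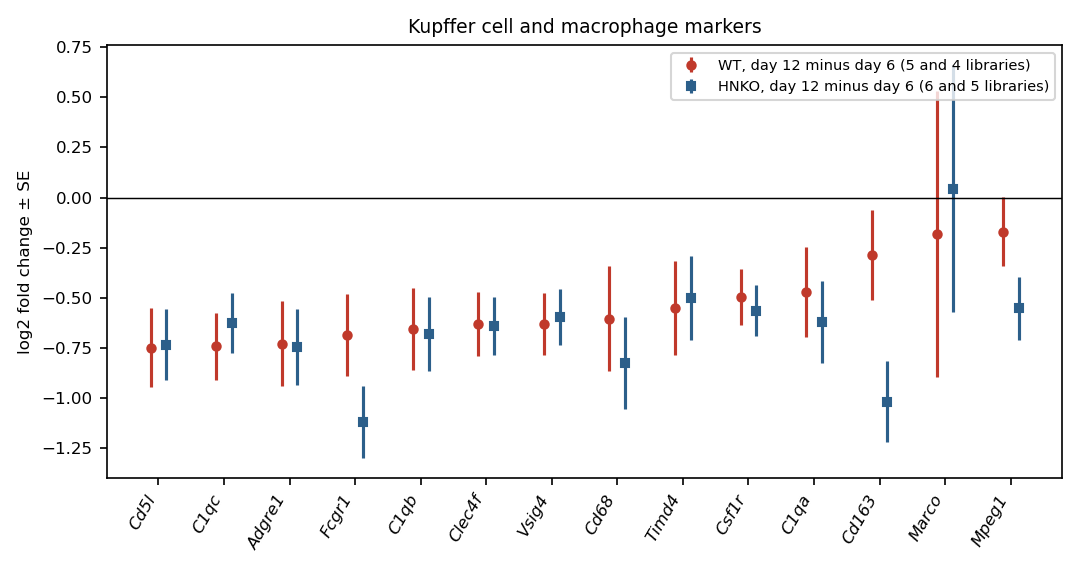
Log2 fold change of day 12 minus day 6 with SE for the 14 genes of the Kupffer cell and macrophage list, in WT (circles) and HNKO (squares) livers. The medians are -0.62 in WT and -0.63 in HNKO, and Marco has the widest error.

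Tyrobp, which encodes the signalling adaptor DAP12 of myeloid cells (chr7:30413760-30417585, plus strand), fell the most clearly of the myeloid genes. Its levels were 3.76, 3.91, 4.23 and 4.02 at day 6 and 2.76, 3.33, 2.34, 2.64 and 3.30 at day 12, and the log2 fold change was -1.07 ± 0.19 (adjusted p = 0.00091). This call held when each library was left out in turn. Folr2, a folate receptor of resident macrophages, changed by -1.06 ± 0.26 (adjusted p = 0.019) and Wfdc17 by -0.86 ± 0.22 (adjusted p = 0.024). Folr2 was not called without library 8, 33 or 34 (adjusted p = 0.099, 0.076 and 0.059), and Wfdc17 was not called without library 14, 27, 28 or 33 (adjusted p = 0.064, 0.086, 0.090 and 0.077). Spi1 and Cfp, which were picked after their values were seen, were also called. Spi1, the ETS transcription factor of the myeloid lineage, had levels of 2.84, 2.93, 3.06 and 2.79 and then 2.12, 2.44, 2.16, 1.83 and 2.24, without overlap (adjusted p = 0.047). Cfp, the complement protein properdin, changed by -0.77 (adjusted p = 0.013). With the length correction Tyrobp (adjusted p = 0.0048) and Cfp (0.047) were called. Folr2 (-1.0, adjusted p = 0.059), Wfdc17 (-0.83, adjusted p = 0.061) and Spi1 (adjusted p = 0.094) were not.

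No markers of other blood cells were called. In monocytes and neutrophils the median was -0.29 with 0 of 12 called. In T and NK cells it was -0.39 with 0 of 14 called, and all 14 had a negative log2 fold change. In B and plasma cells it was -0.30 with 0 of 11, of which 3 had a positive log2 fold change. Erythroid markers had a median of -0.53 with 0 of 8 called, and all 8 had a negative log2 fold change. The summed level was 82.2 to 102 CPM at day 6 and 58.7 to 77.1 at day 12 for monocyte and neutrophil markers, and 8.93 to 13.4 and then 7.17 to 8.89 for T and NK cell markers, neither of which overlapped between days, as in the Kupffer cell list. For B and plasma cell markers the sums overlapped (24.9 to 40.4 and then 25.4 to 47.5), as they did for erythroid markers (296 to 478 and then 271 to 349). MHC class II genes had a median of -0.47 with 0 of 11 called. The median was 0.0370 for endothelial markers (0 of 17 called) and 0.23 for stellate cell and fibroblast markers (0 of 15).

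H2-T22, a non-classical MHC class I gene, changed from 6.37, 6.56, 6.34 and 6.27 to 5.96, 5.89, 5.83, 5.84 and 6.08, without overlap (-0.47 ± 0.092, adjusted p = 0.0023). In the class I family as a whole, counted after the values were seen, 4 of 16 genes fell (H2-T22, H2-D1, H2-T10 and H2-T23), none rose and the median was -0.30, where 0.374% of all tested genes were called lower. These genes are similar in sequence, so that reads can be split between them, and leaving out library 10 or 33 left 1 called and leaving out library 8, 15 or 27 left 2. With only the WT day 6 and day 12 libraries 1 was called. Psmb9, the immunoproteasome subunit, was the only called gene of 43 interferon-stimulated genes (2.33%, against 2.24% of all tested genes, median -0.19). It changed by -0.51 ± 0.14 (adjusted p = 0.044), and its call was lost when any of the 9 libraries was left out. It overlaps Tap1 on the opposite strand, and Tap1 had the higher median count (878 against 404), so their reads may not be separated.

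Among called genes that were lower without overlap between days, the lowest p belonged to Coro1b, an actin-binding coronin (chr19:4148619-4154035, plus strand). Its levels were 5.83, 6.07, 5.81 and 5.67 at day 6 and 5.41, 5.32, 5.37, 5.34 and 5.41 at day 12, with a log2 fold change of -0.49 ± 0.082 (adjusted p = 0.00043). Cst3, the secreted protease inhibitor cystatin C, had levels of 6.52, 6.65, 6.76 and 6.52 and then 6.39, 6.15, 6.02, 6.12 and 6.28, a change of -0.42 ± 0.088 (adjusted p = 0.0047). The Cst3 call was lost when only the WT day 6 and day 12 libraries were fitted (adjusted p = 0.0925) and in each series of library numbers alone (0.13 and 0.20). Cenpm, a centromere protein, changed by -1.38 ± 0.29 (adjusted p = 0.0043), at a low level of 1.53, 1.66, 1.21 and 0.55 and then 0.40, -0.42, 0.23, 0.02 and -0.56. The remaining genes of this group were Sun1 of the inner nuclear membrane (-0.42), the lysosomal phospholipase gene Pla2g15 (-0.47), Snapin (-0.45), the fucose synthesis gene Tsta3 (-0.43) and the pseudogene Gm1966 (-0.69), with adjusted p values between 0.0045 and 0.0082. Snapin overlaps Ilf2 on the opposite strand. When only the WT day 6 and day 12 libraries were fitted, Sun1 (adjusted p = 0.092), Pla2g15 (0.12) and Snapin (0.071) were not called. Gpr146 (-0.79 ± 0.18) and the endoplasmic reticulum gene Creld2 (-0.96 ± 0.27) were, with Tyrobp, Folr2 and Wfdc17, the 5 called genes with the largest falls at a mean level of at least 1 log2 CPM. Both overlapped between days. Gpr146 was not called without library 10 (adjusted p = 0.082), and Creld2, which had a single high value of 5.84 in library 28, was not called without it (adjusted p = 0.39) or without library 10, 14, 15, 16 or 33.

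In 39 of the 51 lists that were carried over from the design no gene was called. This includes all of the clock lists, de novo lipogenesis (median 0.39, 0 of 23), cholesterol synthesis (0.0463, 0 of 25), PPARA targets and fatty acid oxidation (-0.0818, 0 of 32), bile acid synthesis and transport (-0.0856, 0 of 23), cytochrome P450 families (-0.18, 0 of 42), acute phase proteins (-0.0978, 0 of 33), NAD synthesis and use (-0.11, 0 of 31) and cell cycle genes (-0.33, 0 of 42). The median SE of a log2 fold change was 0.22 over all tested genes, which limits the size of change that could be called. Of 80 cytosolic ribosomal protein genes, 77 had a negative log2 fold change (median -0.23), and 1, Rplp0, was called (-0.31 ± 0.079, adjusted p = 0.026), but not without library 10, 14, 16, 27 or 28 (adjusted p from 0.062 to 0.084). It was called in 12 of 23 alternative settings. Of 79 nuclear genes of the respiratory chain, 74 had a negative value (median -0.21) with 0 called. Of 48 replication-dependent histone genes, 47 had a negative value (median -0.50), again with 0 called. Transcripts of these lists are short, with median lengths of 1077, 1005 and 619 bases, and with the length correction their medians were -0.18, -0.17 and -0.45, with 0 genes called.

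The clock genes differed widely between libraries of the same day. Dbp, a D-box factor, had levels of 7.32, 7.06, 2.84 and 3.99 at day 6 and 3.20, 2.78, 7.51, 3.05 and 1.57 at day 12, with a log2 fold change of -0.92 ± 0.84 (adjusted p = 0.71). Arntl, which encodes BMAL1, had levels of 1.27, 1.22, 4.59 and 4.76 and then 4.16, 5.02, 1.27, 4.28 and 4.69, in the opposite order, with a change of 0.49 ± 0.63 (adjusted p = 0.81). Libraries 8, 10 and 16 stood apart in both genes. Without library 16, Dbp (-3.54, adjusted p = 0.0063), Per3 (-3.02, adjusted p = 0.0065), Ciart (-4.89, adjusted p = 0.011) and Tef (-1.91, adjusted p = 0.016) were called lower at day 12, so whether these genes are called rests on 1 library. A clock score, the mean level of Arntl, Npas2, Clock, Cry1 and Nfil3 minus that of Dbp, Tef, Hlf, Per2, Per3, Nr1d1, Nr1d2 and Ciart, was -4.30 and -4.51 in libraries 8 and 10, and -4.80 in library 16, while the other 6 WT libraries lay between -0.34 and 0.68. Low scores thus occurred in 2 of 4 libraries at day 6 and 1 of 5 at day 12. At day 21 the WT libraries had scores between -3.81 and -2.61. With the clock score as a covariate 636 genes were called, of which 423 were among the 454. RefSeq windows were found for 17 of the 22 genes of the clock lists, 25 promoters in all. The canonical E-box CACGTG was present in 6 of these (24%), against 7.15% of all promoters and 9.14% of promoters of tested genes. The D-box forms TTATGTAA and TTACGTAA were present in 1 (4.0%), against 1.06% and 0.832%, and the nuclear receptor motif AGGTCA in 5 (20%), against 16.3% and 13.6%, on either strand.

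The same days were compared in HNKO livers. In the HNKO comparison, 1153 genes were called (5.68%), and 286 genes were called in both genotypes, all of them in the same direction. These are 63.0% of the genes called in WT and 24.8% of those called in HNKO. Both genotypes showed the length trend described above, and the genes shared after the length correction are not counted here. Of the 378 genes higher in WT, 259 were called higher in HNKO, where 2.89% of all tested genes were called higher. Of the 76 lower genes 27 were called lower in HNKO, where 2.79% of all tested genes were. For Palld the change in HNKO was 0.79 ± 0.11, for Crebbp 0.66 ± 0.092, for Hipk2 0.96 ± 0.14, for mt-Nd5 1.27 ± 0.28 and for Tyrobp -1.15 ± 0.17, all with an adjusted p under 0.05. In HNKO livers, 11 of the 14 Kupffer cell and macrophage markers fell and none rose (median -0.63). Other lists fell there too, with 10 of 12 monocyte and neutrophil markers (median -1.88), 28 of 43 interferon-stimulated genes (-0.53) and 18 of 33 acute phase proteins (-0.68) called lower and none higher. The summed level of the Kupffer cell and macrophage list was 1100 to 1460 CPM at day 6 and 571 to 1160 at day 12.

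**Figure D4:**
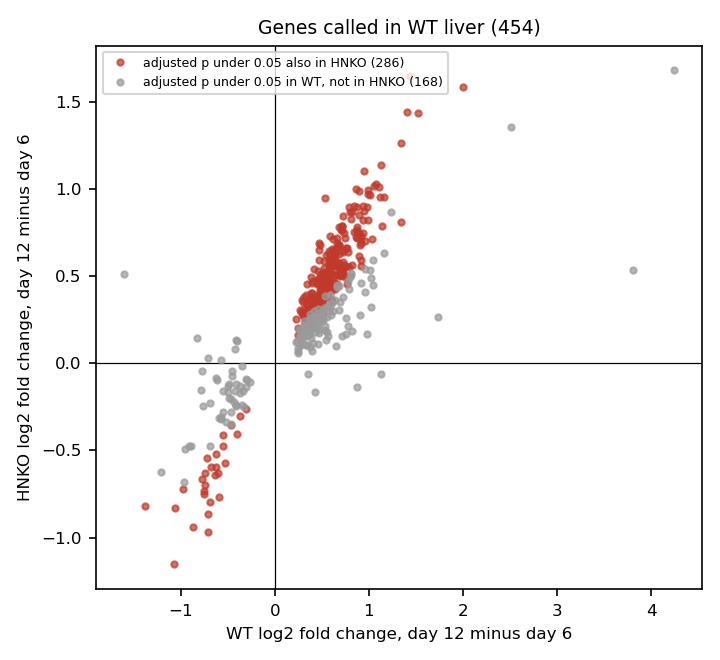
Log2 fold change of day 12 minus day 6 in WT (horizontal) and HNKO (vertical) livers for the 454 genes called in WT. Each point is a gene, 286 of them also called in HNKO, and 443 have the same sign in both genotypes. Over all tested genes, the Spearman correlation of the WT and HNKO changes was 0.352.

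A test of the difference between genotypes called 0 genes with edgeR's quasi-likelihood test (1020 genes at an unadjusted p under 0.05, 5.03%) and 1 with DESeq2. Of the 454 genes called in WT, 43 had an unadjusted p under 0.05 in this test. The smallest p among the 10 named genes that fell was that of Sun1, at -0.42 in WT and 0.0800 in HNKO, with a difference of 0.50 ± 0.12 (adjusted p = 0.65). For Coro1b the difference was 0.29 ± 0.11 and for Palld -0.35 ± 0.17, neither of which passed the adjusted threshold. Whether WT and HNKO mice of the same day were collected together is not given in the sources used here, and influences shared by a collection day would appear in both genotypes.

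The days on either side are given as values, since they share libraries with the comparison. Between days 3 and 6 in WT 0 of 20297 genes were called with edgeR's quasi-likelihood test (1063 at an unadjusted p under 0.05, 5.24%), and between days 12 and 21 there was 1 (0.00493%), Mindy4, which was higher at day 21 (2522 at an unadjusted p under 0.05, 12.4%). The mean level of Palld in WT was 4.98 ± 0.21 (SD, n = 5) at day 3, 4.56 ± 0.069 (n = 4) at day 6, 5.68 ± 0.15 (n = 5) at day 12 and 5.78 ± 0.34 (n = 5) at day 21. Crebbp had means of 6.29 ± 0.22, 6.10 ± 0.13, 6.86 ± 0.066 and 6.77 ± 0.18 at these days, and Tyrobp 3.99 ± 0.085, 3.98 ± 0.20, 2.87 ± 0.43 and 3.35 ± 0.30. Clec4f had means of 7.45 ± 0.18, 7.45 ± 0.22, 6.81 ± 0.29 and 7.03 ± 0.26.

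**Figure D5:**
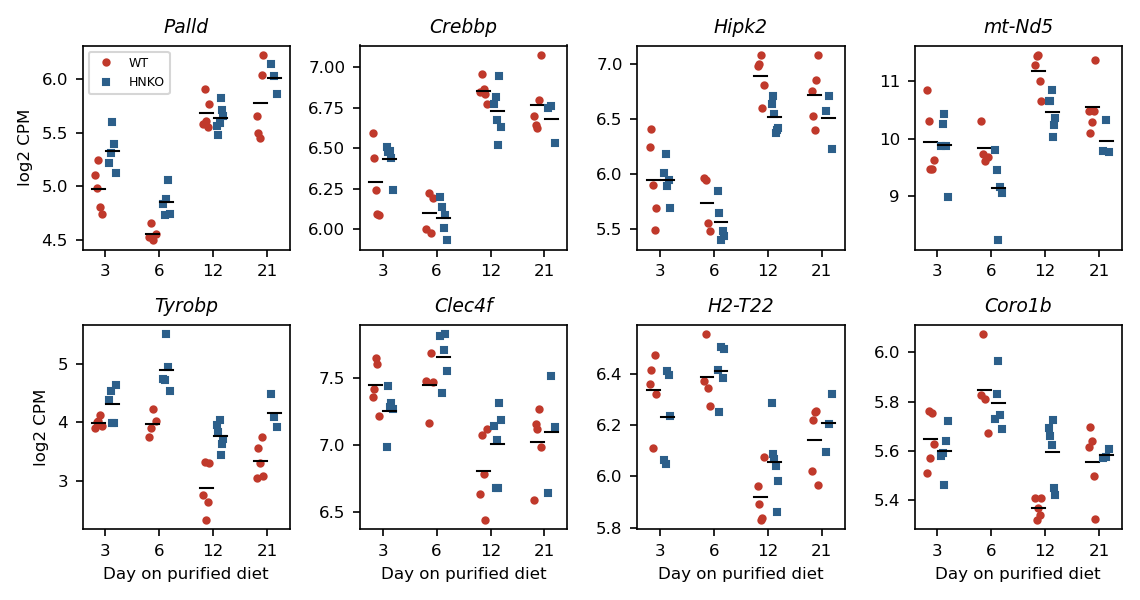
Level of 8 genes in log2 CPM by day on the purified diet, for every WT (circles) and HNKO (squares) library, with group means as bars. In WT, Palld has means of 4.98, 4.56, 5.68 and 5.78 at days 3, 6, 12 and 21.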

How the data were processed

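The authors extracted total RNA from snap-frozen liver, depleted ribosomal RNA and sequenced paired-end libraries. Per the labels and the authors' methods, reads were aligned to GRCm38 with STAR 2.7.2b and counted per gene with featureCounts 1.6.4; the deposited values are raw counts per gene, and the strand setting is not given in the sources used here. Counts of 38 libraries in 8 groups were fitted together with edgeR 4.0.16 in R 4.3.3 (TMM scaling, filterByExpr, quasi-likelihood test); 2 libraries that failed quality control were left out. Calls are Benjamini-Hochberg adjusted p under 0.05. Log2 CPM uses a prior count of 2. Single genes were also compared with a two-sided exact permutation test over the 126 splits of 9 libraries, whose smallest p is 0.00794; 1091 tested genes and 391 of the 454 calls had a p of 0.0159 or less. The labels give separate samples but do not name animals, so p-values measure the spread between these samples. The closest pair in a group differed by 18.6 chi-square units per gene, beyond sampling noise.

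The members and gene lists were chosen with earlier results of these data known. Named genes were the 10 smallest p in each direction among called genes with no overlap, the 5 largest changes in each direction at a mean of at least 1 log2 CPM, up to 4 called members per list (or the smallest p), the clock lists, Nampt and Alb. Gene positions and transcript lengths are from GENCODE on GRCm38. The fit was tested on simulated data. Alternatives were other scalings and filters, DESeq2 1.42.0, other sample sets, series of library numbers, a clock covariate, length correction and leaving out each library. A few genes are not reported here.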

Additional observations from a re-analysis of the deposited data

Results flagged for a closer look

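Among the 104 named genes, 16 values stood far from the other libraries of their group by Dixon's test at 95%, of 208 groups examined; chance flags about 1 in 20 groups. Library 16 at WT day 12 held 11 of them. In that library the clock genes Clock (5.20 log2 CPM), Npas2 (-1.30) and Arntl (1.27) stood low and Per2 (6.47), Per3 (7.42), Ciart (5.42), Dbp (7.51) and Bhlhe40 (8.35) stood high, as did Nampt (7.24). In the same library Sirt7 (5.53) stood high and Snapin (3.59) low. Library 27 at WT day 6 was high for Gm1966 (4.44) and Lyz2 (6.31). Library 10 was high for Tsta3 (4.33), and library 8 was high for mt-Nd5 (10.30). Library 34 at day 12 was low for Cyp3a11 (9.13). The calls of Gm1966, Tsta3 and Snapin held when the library concerned was left out, and that of mt-Nd5 held without library 8.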

How the results depend on the processing

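Across WT livers, 454 genes were called in the comparison as reported (378 higher, 76 lower). Counts over 1.5 times away were 720 with DESeq2 (162 lower), 270 with all 40 libraries (17 lower), 213 when only the groups compared were fitted (197 higher, 16 lower), 280 in libraries 1 to 21 alone (237 higher, 43 lower) and 102 in libraries 22 to 41 alone (97 higher, 5 lower). The length correction gave 182 (136 higher, 46 lower) and the length and GC correction 209 (154 higher); both were added after seeing the data. Genes called lower numbered 25 without a filter, 144 with the library number series as a covariate and 155 with the clock score as a covariate. Leaving out each WT library gave 271 to 525 genes, 239 to 398 higher and 30 to 127 lower, with 271 without library 8, 299 without library 10 and 525 without library 16. In HNKO livers 1153 genes were called, and 593 with all 40 libraries, 533 when only the groups compared were fitted, 17 in libraries 1 to 21 alone and 601 to 1170 when a library was left out, with 601 without library 29. The genotype difference called 0 genes as reported, 1 with DESeq2 and 2 in libraries 22 to 41 alone. The cause of these shifts was not tested.

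Every named gene called in WT kept its sign in all alternatives, while the genes that changed sign were not called where they did so. In libraries 22 to 41 alone the log2 fold changes were 0.44 for Ciart, -0.18 for Arntl, -0.22 for Nfil3, -2.58 for Myh4, 0.044 for Bhlhe40, 1.37 for Per1 and -0.064 for Alb. With the clock covariate they were 0.0027 for Per2, -0.0031 for Arntl, -0.13 for Nfil3, 0.049 for Bhlhe40 and 0.62 for Per1. The clock score holds the levels of Per2, Arntl and Nfil3 themselves, so values near 0 are partly built in for them. With the library number series as a covariate they were 0.037 for Per1 and -0.0043 for Alb. Csnk1e gave 0.0092 without a filter, 0.15 in libraries 1 to 21 alone, 0.00099 with the length correction and 0.014 with length and GC, and Rora gave -0.13 and -0.12 with these 2 corrections. Leaving out single libraries gave -0.074 to 0.64 for Nfil3, -0.27 to 0.12 for Bhlhe40, -0.70 to 0.57 for Per1, -0.091 to 0.090 for Csnk1e and -0.070 to 0.047 for Alb.

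No paired analysis was possible because the WT day 6 and day 12 libraries share no library numbers. Depth limits low genes such as Cenpm, with a median of 33 counts, more than abundant ones.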
